A study of Gossypium hirsutum with 6 samples.

Results

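A set of 252 leaf transcripts of upland cotton (Gossypium hirsutum), out of 421554 assembled, stood higher in a heat-tolerant than in a heat-sensitive genotype in each of 3 conditions: without heat, after 4 h and after 8 h at 45 °C. They were chosen by the ratio (tolerant RPKM + 1)/(sensitive RPKM + 1), which had to be 2 or more in every condition. RPKM counts the reads of a transcript per kilobase of its length and relative to the depth of the library, and the added 1 keeps values near 0 from giving very large ratios. Because these values chose the transcripts, the gap between the genotypes is given as a description and nothing is tested on it. In the sensitive genotype 90 of the 252 stayed below 1 RPKM throughout, while 73 were at 1 RPKM or more throughout and 89 crossed that level, mostly upwards with heat.

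The tolerant genotype is Nan Dan Ba Di Da Hua and the sensitive one Earlistaple 7, both named so by the phenotype in the labels. Seedlings of about 20 days grew in sand and soil with 14 h of light, at 28 °C in the day and 22 °C at night, and the culture condition is given as 1/2´ Hoagland’s. Heat began some 6 h into the light period, and controls stayed at 28 °C. Triplets of values below follow the order control, 4 h, 8 h, and tolerant values stand before sensitive ones. Each genotype and condition is 1 library of leaf RNA, so every value rests on a single library, no spread between plants is known and no p-value can be given. A fixed difference between these genotypes and a difference between these plants or libraries cannot be told apart. A leaf holds many cell types, and fewer cells of one type cannot be told apart from less RNA per cell.

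Plants meet damaging heat with a rapid rise of transcripts that are low or silent in unheated leaves, driven by heat shock transcription factors and led by those of chaperones, while many transcripts of growth and photosynthesis decline. Cultivars of one species can differ in transcripts that are read in one and not in the other, or in the level that a shared transcript reaches. Upland cotton carries an A and a D subgenome, so most genes exist as closely related copies, and an assembly made from reads can list copies, alleles and splice forms as separate transcripts. Transcripts assembled together share a component in their identifier. The files pair no identifier with a gene name, and 0 of the 252 matched the 99454 genes of a RefSeq table (Gossypium_hirsutum_v2.1). No function, gene position or sequence is therefore given, and the leaf label could not be checked by marker genes.

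Total read numbers are unknown, but the spacing of the low values gives relative depths of 1.00, 0.805 and 0.795 for the tolerant series and 1.14, 1.07 and 0.869 for the sensitive series. In each condition the sensitive library was thus the deeper one, which bears on values of 0 there. Between 107290 and 148293 transcripts reached 1 RPKM in a library. Among transcripts at 1 RPKM or more in either genotype, 5.28% had a ratio of 2 or more in favour of the tolerant genotype in the controls, 7.78% at 4 h and 9.54% at 8 h. For 151 of the 252 the lowest tolerant library lay above the highest sensitive library, against 1.53% of the 226960 transcripts that reached 1 RPKM in any library. In the other 101 the ranges overlapped, since a sensitive library reached or exceeded the lowest tolerant one. The rule itself favours both counts.

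Transcripts that showed no reads in the sensitive genotype were few and low. In 15 of the 252 (5.95%) all 3 sensitive libraries listed 0. Their tolerant levels ran from 1.02 to 3.88 RPKM without heat, from 1.01 to 7.99 RPKM at 4 h and from 1.07 to 4.48 RPKM at 8 h, with medians of 1.52, 2.46 and 1.80 RPKM. The highest, comp63290_c0_seq1, measured 3.88, 7.99 and 2.05 RPKM in tolerant leaves. The next by tolerant mean measured 1.53, 3.32 and 4.48 RPKM, the third 2.29, 5.42 and 1.31 RPKM, the fourth 3.55, 2.80 and 1.62 RPKM and the fifth 1.96, 3.65 and 2.05 RPKM. These 5 shared no course over time, with the peak at 4 h in 3, at 8 h in 1 and in the control in 1. Of the 15, 9 were the sole transcript of their component.

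A further 75 transcripts (29.8%) were found in the sensitive genotype at less than 1 RPKM in every library but not at 0 in all. Their medians were 3.23, 3.57 and 3.15 RPKM in tolerant leaves and 0.04, 0.17 and 0.10 RPKM in sensitive leaves. The largest tolerant mean belonged to a transcript at 5.37, 12.20 and 13.10 RPKM, against 0.04, 0.17 and 0.00 RPKM in sensitive leaves. The second, in another component, had almost the same profile, at 5.25, 11.94 and 12.81 RPKM against 0.03, 0.17 and 0.00 RPKM. The third declined over the heat, with 12.81, 9.99 and 7.19 RPKM against 0.26, 0.07 and 0.27 RPKM. The fourth measured 4.57, 13.34 and 11.87 RPKM against 0.00, 0.01 and 0.03 RPKM, and the fifth, again of another component, 4.52, 13.26 and 11.99 RPKM against 0.00, 0.01 and 0.03 RPKM. All 5 were above 4 RPKM in each tolerant library and below 0.3 RPKM in each sensitive one. With the level of near absence set at 0.1 RPKM in place of 1 RPKM, 33 of the 90 transcripts of both classes stayed under it in all 3 sensitive libraries.

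The 89 transcripts (35.3%) below 1 RPKM in 1 or 2 sensitive libraries were mostly near absent there without heat and present after it. In the sensitive genotype 79 of the 89 were below 1 RPKM without heat, 44 after 4 h and 4 after 8 h. From below 1 RPKM in the control 76 passed to 1 RPKM or more at 8 h. Over all transcripts the number at 1 RPKM or more in the sensitive libraries also rose, at 114604, 119524 and 148293. The class is defined by a crossing of this level, and the share of all transcripts that crossed it upwards was not counted. Medians of the 89 were 3.63, 6.56 and 23.5 RPKM in tolerant leaves against 0.44, 1.03 and 5.22 RPKM. The most abundant was alone in its component and measured 2.68, 426.06 and 988.56 RPKM against 0.70, 118.13 and 141.81 RPKM. The second, at 6.03, 30.17 and 223.74 RPKM against 0.95, 5.69 and 28.66 RPKM, belonged to a component of 22 transcripts of which 5 were in the set. The fourth came from that same component, with 1.65, 21.58 and 158.64 RPKM against 0.14, 2.00 and 21.21 RPKM.

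A different course was seen in 2 components that together held 16 of these 89 transcripts, though not in these components alone. In the first, the medians over 8 transcripts were 20.24, 7.90 and 107.77 RPKM in tolerant leaves. Their sensitive medians were 0.40, 0.50 and 7.40 RPKM. In the second component the 8 medians were 21.3, 7.35 and 92.0 RPKM against 0.66, 0.50 and 6.59 RPKM. All 16 were lowest at 4 h and highest at 8 h in the tolerant genotype, and all were near or below 1 RPKM in the sensitive genotype before 8 h. The leading transcript of the first component, the third of its class, measured 41.56, 12.81 and 139.14 RPKM against 0.99, 0.87 and 10.43 RPKM. Its plain tolerant-to-sensitive ratio went from 42.0 in the controls to 14.7 at 4 h and 13.3 at 8 h. The fifth of the class, of the same component, gave 34.29, 10.72 and 114.21 RPKM against 0.79, 0.70 and 8.73 RPKM.

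**Figure D1:**
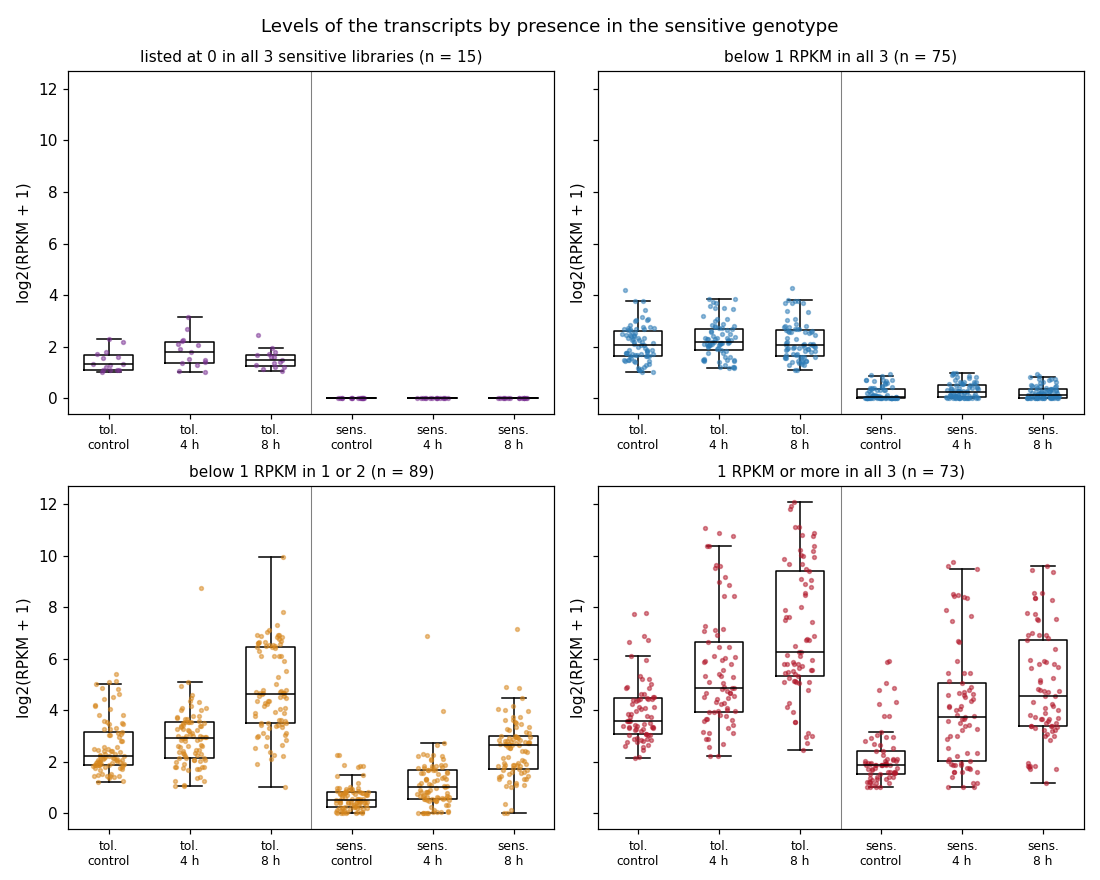
Levels of the 252 transcripts on the log2(RPKM + 1) scale in the 6 libraries, in 4 panels by their level in the sensitive genotype; each point is a transcript, boxes span the quartiles with the median as a line, and whiskers reach the last point within 1.5 box lengths. The 15 and 75 transcripts of the upper panels stay low in all tolerant libraries, whereas the 89 and 73 of the lower panels reach their highest medians at 8 h in both genotypes.

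The remaining 73 transcripts (29.0%) were present in both genotypes in every condition and held the most abundant members. Medians were 11.1, 28.5 and 76.2 RPKM in tolerant leaves against 2.70, 12.3 and 22.5 RPKM. comp104672_c0_seq9 had the largest tolerant mean of all 252, and its 3 values were 6.59, 2172.43 and 4387.01 RPKM against 2.41, 863.38 and 786.03 RPKM. Its plain ratio was 2.73 in the controls, 2.52 at 4 h and 5.58 at 8 h, because the tolerant level doubled between 4 and 8 h while the sensitive level slipped. In its component of 9 transcripts, 8 were in the set. Their medians were 8.70, 634.98 and 1559.22 RPKM against 2.00, 263.67 and 259.35 RPKM.

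The next members by tolerant mean also rose steeply by 4 h in both genotypes and further by 8 h in the tolerant one. One of another component measured 5.26, 1866.51 and 3853.57 RPKM against 1.55, 769.39 and 695.83 RPKM, and the third, of the leading component, 4.96, 1753.29 and 3619.56 RPKM against 1.53, 722.74 and 653.73 RPKM. The next pair lay in separate components with almost equal values, 9.52, 1329.60 and 2231.62 RPKM against 2.65, 359.88 and 378.69 RPKM, and 9.45, 1320.60 and 2216.01 RPKM against 2.64, 357.99 and 375.91 RPKM. In that pair the sensitive level did not slip after 4 h, and the plain ratio did not dip at 4 h. All 5 were strongly induced by heat in both genotypes and differed least between them in the controls or at 4 h. The members therefore do not count independent loci: 28 of the 252 had a partner in another component with proportional values over the 6 libraries, within a distance of 0.02 on centred natural logarithms, and the set fell into 168 components.

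The 4 members at 100 RPKM or more in the tolerant control, chosen after their values were seen, did not share a course. The highest measured 218.26, 39.16 and 372.77 RPKM against 58.97, 16.30 and 61.39 RPKM. It fell at 4 h in both genotypes and came back at 8 h, to 1.71 times its control in the tolerant and 1.04 times in the sensitive genotype. A second transcript of its component and one of another component had the same shape, the latter with 117.44, 22.00 and 195.26 RPKM against 32.19, 9.62 and 33.24 RPKM. The fourth rose with heat, at 105.80, 152.21 and 1003.43 RPKM against 19.12, 21.91 and 119.75 RPKM.

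**Figure D2:**
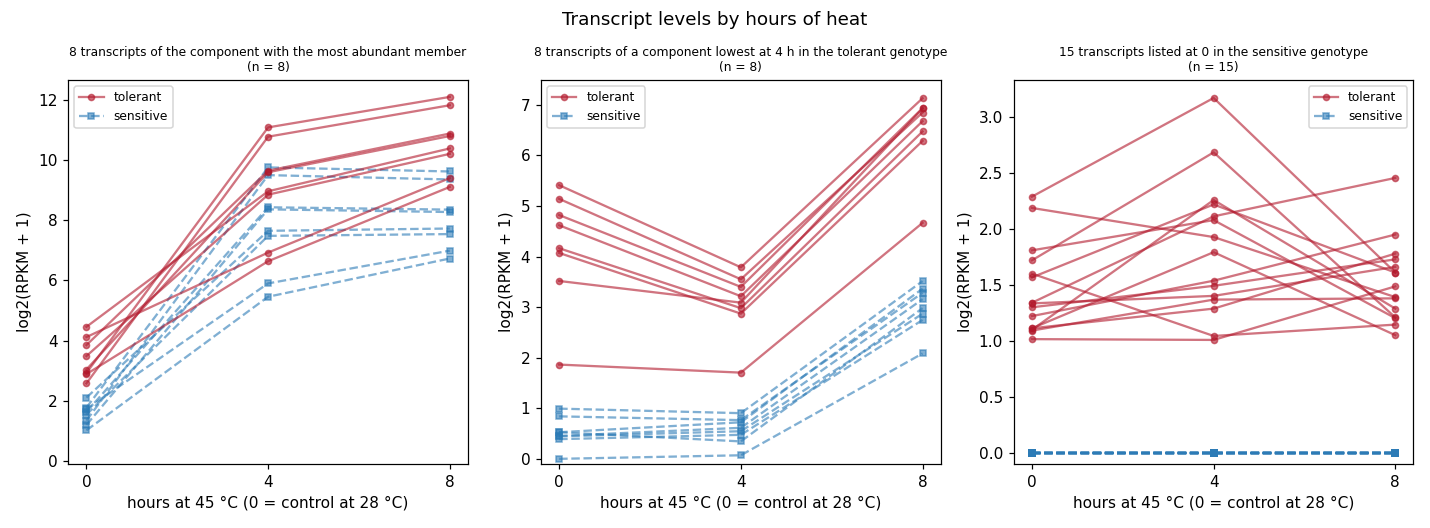
Levels on the log2(RPKM + 1) scale against hours at 45 °C, with the control at 0 h, for 3 sets of transcripts; each line is a transcript, solid with circles in the tolerant and dashed with squares in the sensitive genotype. The left set rises by 4 h in both genotypes and gains more by 8 h in the tolerant one, the middle set dips at 4 h in the tolerant genotype before it rises, and the right set is listed at 0 in the sensitive genotype.

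In both genotypes more of the 252 were higher than lower after heat. The background for these counts is the 60584 transcripts at 1 RPKM or more in every tolerant library, a condition that each of the 252 meets through the rule. At 8 h 148 (58.7%) exceeded their control by at least 2-fold in the tolerant genotype and 8 were lower by as much, where the background had 17.0% higher and 16.3% lower. In the sensitive genotype 123 (48.8%) were higher and 1 was lower at 8 h, against 16.6% and 6.72%. At 4 h the tolerant genotype had 79 (31.3%) higher and 33 (13.1%) lower, against 16.3% and 7.50%, and the sensitive genotype 74 (29.4%) higher and 14 (5.56%) lower, against 15.1% and 7.50%. A transcript that falls out of the tolerant 4 h or 8 h library cannot be a member, so the rule limits the falls. Under median-of-ratios scaling the tolerant counts at 4 h turned to 38 higher and 50 lower, and under upper-quartile scaling to 42 and 48. Both scalings kept the order at 8 h, with 154 and 134 higher against 8 and 15 lower in the tolerant genotype.

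The heat response was divided by the level in the sensitive genotype. Of the 162 transcripts that reached 1 RPKM in a sensitive library, 133 were at least 2-fold higher at 8 h in the tolerant genotype, 72 of the 89 and 61 of the 73. Of the 90 below 1 RPKM throughout, 15 were higher and 6 lower at 8 h, with a median log2 response of 0.18, while the background median was 0.02. The sensitive response of these 90 is held near 0 by the added 1. These classes use the heated sensitive libraries, and the ratio rule asks for at least 3 RPKM in the tolerant genotype wherever the sensitive one reaches 1 RPKM, so the choice of members partly fixes this division and it is given as a description. Both genotypes passed 2-fold upwards at 8 h in 119 transcripts, the tolerant one with the sensitive within 2-fold in 29, and the reverse in 4. The members were chosen on these libraries, and in the background these shares were 8.0%, 8.98% and 7.38%. None of the 252 was at least 2-fold higher in one genotype and 2-fold lower in the other, at 4 h or at 8 h, and in the background 0.931% and 1.32% were. A level near 0 in the sensitive genotype cannot fall 2-fold on this scale, and the rule limits falls in the tolerant one.

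The few abundant members set the share of RNA that the set took up. The 252 held 0.332%, 1.97% and 5.26% of all RPKM in tolerant leaves, against 0.0631%, 0.738% and 0.864% in sensitive leaves. At 8 h the 10 highest made up 55.5% of the set's RPKM in the tolerant and 58.7% in the sensitive library. The level of 100 RPKM was reached by 4, 19 and 48 members in tolerant leaves and by 0, 14 and 20 in sensitive leaves. The rule places every member higher in the tolerant genotype, so the direction of these differences follows from the choice. How many of all transcripts reached 100 RPKM was not counted, and members with almost equal values are counted separately.

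**Figure D3:**
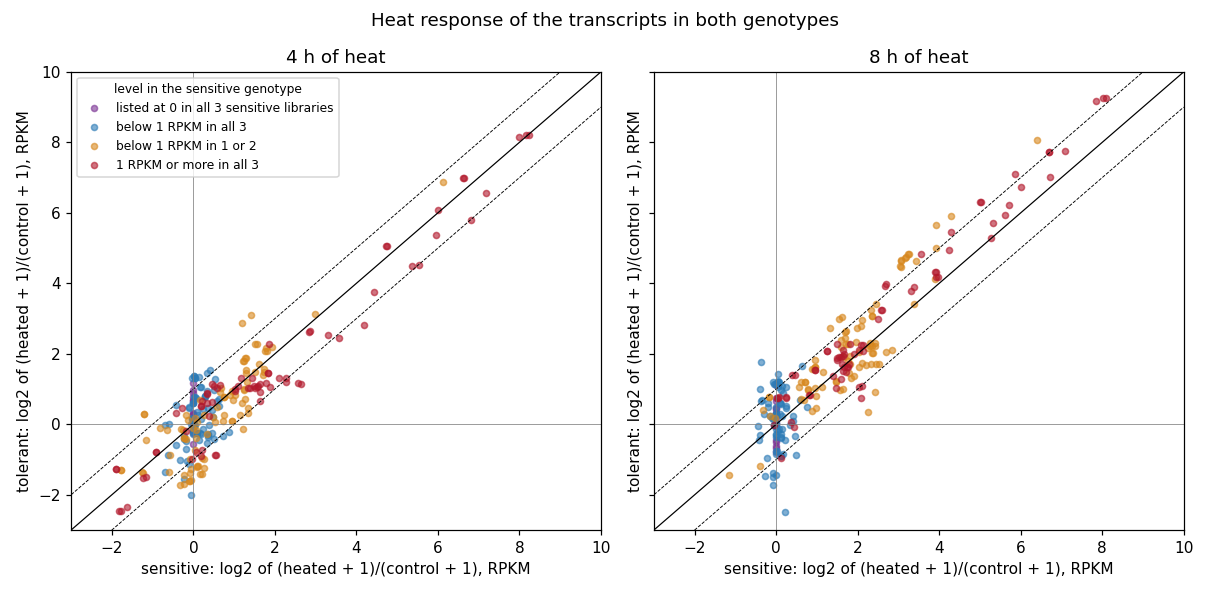
Log2 response to heat in the tolerant (vertical) against the sensitive genotype (horizontal), on the RPKM + 1 scale, for the 252 transcripts at 4 h and 8 h; colours give the level in the sensitive genotype, the solid line equal responses and the dashed lines a 2-fold difference. At 8 h 119 points lie at 1 or more on both axes, and the points of the transcripts below 1 RPKM in all sensitive libraries stand along 0 on the horizontal axis.

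The median gap between the genotypes was narrower at 4 h and wider at 8 h than without heat where it can be read as a plain ratio. In the 73 transcripts at 1 RPKM or more in every library the median tolerant-to-sensitive ratio was 3.67 in the controls, 2.65 at 4 h and 4.90 at 8 h. The ratio was smaller at 4 h than in the controls in 51 and larger at 8 h in 44 of the 73. With median-of-ratios scaling these medians were 4.16, 2.06 and 7.70 with 68 smaller at 4 h and 63 larger at 8 h, and with upper-quartile scaling 3.96, 2.11 and 6.11 with 61 and 54. The 73 lie in 46 components, so these counts are not of independent loci. They were not repeated with 1 member per component. On the RPKM + 1 scale the background's ratio was smaller at 4 h in 23033 of 60584 and larger at 8 h in 25503. The scalings move the background too. Its median change of the log2 ratio at 4 h was 0.18 as deposited, -0.24 with median-of-ratios and -0.16 with upper-quartile scaling. At 8 h these medians were -0.16, 0.19 and -0.01. The further change after scaling is thus not particular to the 73. Both 4 h and 8 h are read against the same pair of controls, so they share any error of those libraries. Since the rule asks for a ratio of 2 everywhere, a gap can widen freely but can narrow only as far as that limit.

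Over all 252 the change of the gap was small on the RPKM + 1 scale. The median change of the log2 ratio from the controls was -0.09 at 4 h and 0.29 at 8 h, where the background of 60584 transcripts had 0.18 and -0.16. The members' median thus lay 0.27 below the background at 4 h and 0.45 above it at 8 h. Under median-of-ratios scaling it lay 0.31 below and 0.35 above, and under upper-quartile scaling 0.31 below and 0.31 above. A scaling shifts members and background by nearly the same amount, so it could hardly change these distances. The sign at 8 h rests on the added constant, however. With 0.1 RPKM added in place of 1 RPKM the members' median change was -0.35 at 4 h and -0.08 at 8 h. The background was not recomputed with that constant. The largest ratio of the 3 conditions was found at 8 h for 136 of the 252, in the controls for 63 and at 4 h for 53.

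Changes of at least 2-fold in the gap were counted next. At 4 h the gap widened by that much in 13 transcripts (5.16%) and narrowed in 33 (13.1%), where 7.53% and 8.05% of the background did. The 33 lie in 18 components, and with 1 member per component the gap widened in 9, narrowed in 12 and had a median change of 0 at 4 h. At 8 h it widened in 44 (17.5%) and narrowed in 15 (5.95%), against 7.43% and 18.9%. A member could narrow by 2-fold only if its log2 ratio in the controls was 2 or more, which held for 77 of the 252. With 0.1 RPKM added, 32 widened and 57 narrowed at 8 h, so the order of these counts is not fixed there. Under all 3 scalings, as deposited included, 40 widened and 9 narrowed at 8 h, and 2 widened and 33 narrowed at 4 h.

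**Figure D4:**
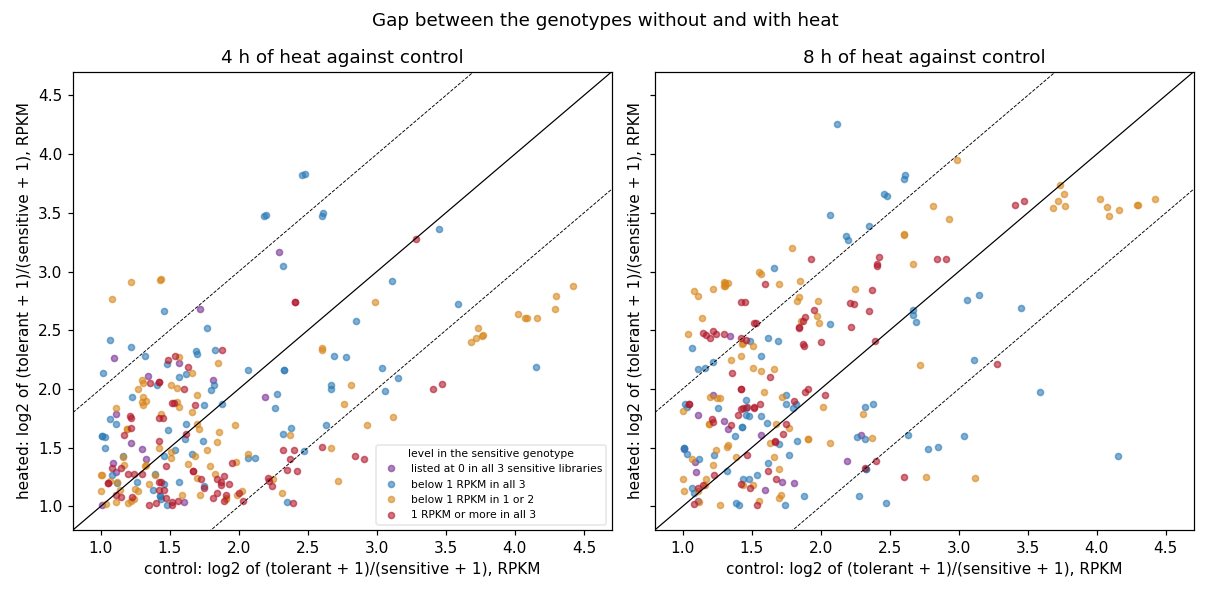
Log2 ratio of (tolerant RPKM + 1) to (sensitive RPKM + 1) after 4 h (left) and 8 h (right) of heat against the same ratio in the controls for the 252 transcripts, coloured by the level in the sensitive genotype; the solid line marks an unchanged gap and the dashed lines a 2-fold change. At 4 h 33 points lie on or under the lower dashed line and 13 on or over the upper one, while at 8 h the numbers are 15 and 44.

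A change of the gap is the tolerant response less the sensitive one, so a high tolerant response among the widened gaps follows from their choice. Of the 44 that widened at 8 h, 42 exceeded their control at least 2-fold in the tolerant genotype and 28 of them also in the sensitive one, beside 119 of all 252 (47.2%) that were higher in both. comp127730_c0_seq4 had the largest widening, by 2.14 on the log2 scale, and was among the 15 of the 44 that stayed below 1 RPKM in every sensitive library. Its levels were 4.75, 1.82 and 18.52 RPKM against 0.32, 0.06 and 0.02 RPKM. The second widening, by 1.75, was that of a transcript at 1.34, 16.19 and 117.02 RPKM against 0.11, 1.52 and 15.64 RPKM. Its plain ratio was 12.2, 10.7 and 7.48, so the widening of this low-control transcript is a product of the added 1. The third, by 1.68, was the transcript at 988.56 RPKM in the tolerant 8 h library described above, whose plain ratio of 3.83, 3.61 and 6.97 did grow at 8 h. The fourth, by 1.63, again shrank as a plain ratio, from 11.8 to 7.48, and the fifth, by 1.61, grew from 4.50 to 7.96.

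Of the 15 that narrowed at 8 h, 6 were at least 2-fold lower at 8 h in the tolerant genotype and 4 at least 2-fold higher in the sensitive one. comp138963_c0_seq1 narrowed most at both times and measured 17.42, 3.57 and 2.26 RPKM against 0.04, 0.00 and 0.21 RPKM. The change of its log2 ratio was -1.95 at 4 h and -2.72 at 8 h. The second narrowing at 8 h, of -1.88, came with a rise in the sensitive genotype, from 0.37 to 2.19 and 5.45 RPKM, beside 10.94, 9.83 and 14.28 RPKM in the tolerant one. The fourth, of -1.51, had the same course, with 6.88, 8.42 and 13.83 RPKM against 0.16, 1.58 and 5.22 RPKM. The third and the fifth fell in the tolerant genotype, from 12.75 to 5.64 and 3.18 RPKM and from 7.25 to 4.67 and 2.03 RPKM, and stayed at or below 0.25 RPKM in the sensitive one.

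At 4 h the largest changes fell in few components. After comp138963_c0_seq1, the 4 next narrowings, of -1.62 to -1.52, were all of the first component described above with a dip at 4 h. The 5 largest widenings at 4 h ran from 1.35 to 1.70. The first, by 1.70, was the transcript at 1.65, 21.58 and 158.64 RPKM, and the second, by 1.69, its neighbour in the same component at 1.34, 16.19 and 117.02 RPKM. Without the added 1 RPKM, the ratio of these transcripts between the genotypes was lower at 4 h than in the control, at 10.8 against 11.8 and 10.7 against 12.2. The third and the fourth, in separate components, were near copies of each other in profile and came with a dip in the sensitive genotype. One measured 8.86, 10.97 and 15.97 RPKM against 2.64, 0.56 and 2.24 RPKM, and the other 8.73, 10.81 and 15.64 RPKM against 2.60, 0.55 and 2.20 RPKM.

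Whether a whole component or a single transcript of it was higher in the tolerant genotype varied. Of the 252, 74 were the sole transcript of their component. The other 178 lay in 94 components. In 43 of these, holding 119 of the transcripts, the component's summed RPKM also had a ratio of 2 or more in every condition. The sum includes the members themselves, so a pass is partly built in, and no share was counted over components at large. In the other 51 components the sum missed the limit in at least 1 condition, although it was higher in the tolerant genotype in every condition in 36, and in 13 it was within 2-fold in all 3. Counting the 74 sole transcripts too, the sum passed for 193 of the 252 as deposited. This count fell to 141 under median-of-ratios and to 142 under upper-quartile scaling. The 94 components held 464 further transcripts, of which 187 were at 1 RPKM or more in every tolerant library. Of those 187, 90 were higher in the tolerant genotype in every condition, a share that was not counted over the background. The median log2 ratios of the 187 were 0.42, 0.51 and 0.41 in the controls, at 4 h and at 8 h. In the background of 60584 transcripts they were -0.05, 0.14 and -0.19. The limit of 1 RPKM is set on the tolerant libraries alone, which favours a tolerant excess in both.

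In 4 components a member stood beside a transcript that was at least 2-fold higher in the sensitive genotype in every condition. In one the member measured 6.17, 8.84 and 5.73 RPKM against 1.47, 1.02 and 2.34 RPKM. One of its counterparts had 0.02, 0.19 and 0.08 RPKM against 3.68, 4.32 and 8.06 RPKM, and the other 0.04, 0.15 and 0.00 RPKM against 4.57, 7.33 and 8.44 RPKM. Summed, that component was higher in the sensitive genotype, at 6.23, 9.18 and 5.81 RPKM against 9.72, 12.67 and 18.84 RPKM. In a second the member had 1.22, 4.56 and 4.10 RPKM against 0.06, 0.04 and 0.00 RPKM, and the leading counterpart 0.00, 0.16 and 0.00 RPKM against 5.70, 2.31 and 4.47 RPKM. The order of its sums changed at 4 h, with 1.22, 4.82 and 4.10 RPKM against 10.2, 4.15 and 8.20 RPKM. In the third the member had 5.38, 3.22 and 2.29 RPKM against 0.91, 0.43 and 0.63 RPKM, and the component sum was again the higher one in the sensitive genotype, at 9.71, 5.22 and 3.59 RPKM against 16.58, 9.22 and 11.19 RPKM. In the fourth the member had 2.10, 8.01 and 5.47 RPKM against 0.33, 0.76 and 0.38 RPKM, and the sum stayed higher in the tolerant genotype, at 3.32, 12.92 and 10.00 RPKM against 1.70, 6.21 and 4.42 RPKM.

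The reverse rule, a ratio of 2 or more in favour of the sensitive genotype in every condition, gave 280 transcripts of 206 components. Of these, 190 (67.9%) were below 1 RPKM in all 3 libraries of the other genotype, against 90 of 252 (35.7%) here, and 38 (13.6%) were listed at 0 there, against 15 (5.95%). The tolerant libraries were the shallower ones in each condition, which favours values of 0 in tolerant leaves. At 8 h 27 of the 280 (9.64%) exceeded the control of their own genotype at least 2-fold, against 148 of 252 (58.7%) here. Over all transcripts at 1 RPKM or more in the control or at 8 h, 18.8% did in the sensitive and 27.5% in the tolerant genotype. Unlike both sets, these shares include transcripts below 1 RPKM in 1 of the libraries compared. Among transcripts at 1 RPKM or more in every tolerant library the tolerant share was 17.0%. The like share for the sensitive libraries was not counted. Medians of the 280 in sensitive leaves were 4.62, 3.67 and 4.01 RPKM, beside 4.55, 6.50 and 13.9 RPKM for the 252 in tolerant leaves. The highest mean in the own genotype was 165 RPKM, against 2189 RPKM. With 1 library per group these differences were not tested.

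Near its limit the rule separates transcripts that hardly differ. The smallest of the 3 ratios was below 2.5 in 142 of the 252, and it was 4 or more in 34. The 5 members closest to the limit had smallest ratios of 2.00 to 2.01. They included one at 2.96, 33.35 and 67.92 RPKM against 0.98, 14.65 and 28.33 RPKM, and one at 1.02, 1.01 and 1.80 RPKM against 0 in all sensitive libraries. The 5 transcripts closest outside had 1.99. Among them was one at 10.64, 126.98 and 301.28 RPKM against 4.85, 57.34 and 31.37 RPKM, and one at 1.80, 3.92 and 0.99 RPKM against 0.00, 0.42 and 0.00 RPKM.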

How the data were processed

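Leaf RNA of 6 libraries was sequenced on an Illumina HiSeq instrument, per the series design. The values are RPKM with 2 decimals as the authors deposited them, 1 column per library, for 421554 transcripts. How reads were assembled, aligned, counted and split by strand is not given in the sources used here. Libraries were grouped by genotype and treatment in their titles, which gives 6 groups of 1 library, so no test was run.

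Ratios between genotypes and against control were taken on RPKM + 1, and limits of 2-fold were used. Plain ratios of RPKM are named as such, and no ratio was formed over a 0. Relative depth was found from the ratio at which transcripts with equal read numbers pile up in each of 15 pairs of libraries, which agreed within 0.00299 on the log2 scale. The alternatives were median-of-ratios and upper-quartile (75th percentile) scaling, 0.1 RPKM added, a filter of 5 RPKM, a ratio of 4, other levels of presence and another distance. Counting 1 member per component was added after the data were seen. Except where the members themselves are counted, the scalings, the other added constant and the other levels and distance kept the 252 members. Their values were recomputed. The filter and the count per component used only the members that remained.

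The members and the quantities described were chosen with earlier results of these data known. Transcripts described with values were the 5 with the highest tolerant mean in each class of presence, the 5 largest changes of the gap in each direction and time, the 5 on each side of the limit, and members beside a transcript with the reverse difference. At most 4 identifiers are printed. The procedure was checked on simulated data. Python 3.11.15, NumPy 2.4.6, pandas 2.3.3 and SciPy 1.17.1 were used.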

Additional observations from a re-analysis of the deposited data

How the results depend on the processing

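No paired analysis was possible because each group has 1 library and no test was run. Median-of-ratios scaling gave 228 members and upper-quartile scaling 209, of which 173 and 181 were among the 252, and 173 met the rule under all 3 scalings. It was 480 with 0.1 RPKM added (all at 1 RPKM or more in every tolerant library), 95 with a filter of 5 RPKM and 34 with a ratio of 4. The scalings shifted the change of the gap by -0.55 and -0.44 at 4 h and 0.47 and 0.21 at 8 h on the log2 scale (median-of-ratios, then upper-quartile). Under median-of-ratios scaling the gap widened in 2 and narrowed in 75 members at 4 h (median -0.54) and widened in 78 and narrowed in 9 at 8 h (median 0.54), and 38 members were higher and 50 lower at 4 h in the tolerant genotype. Under upper-quartile scaling 5 widened and 68 narrowed at 4 h (median -0.47), 42 were higher at 4 h and 15 lower at 8 h in the tolerant genotype. With 0.1 RPKM added, 24 widened and 81 narrowed at 4 h (median -0.35) and 57 narrowed at 8 h, where the median change turned to -0.08. With it 15 were lower at 8 h in tolerant leaves, while in sensitive leaves 114 were higher and 32 lower at 4 h and 9 lower at 8 h. The filter of 5 RPKM kept fewer members, of which 2 widened at 4 h (median -0.48), and 15 widened and 5 narrowed at 8 h. Of them 45 were higher and 19 lower at 4 h and 79 and 0 at 8 h in tolerant leaves, 45 and 9 at 4 h and 76 and 0 at 8 h in sensitive leaves, and 80 had a component sum that passed. With 1 member per component 9 widened and 12 narrowed at 4 h with a median change of 0 and 27 widened at 8 h, 42 were higher and 18 lower at 4 h and 81 higher at 8 h in the tolerant genotype, 34 and 61 were higher at 4 h and 8 h in the sensitive one, and 117 component sums passed. Near absence in all sensitive libraries held for 33 at 0.1 RPKM and 65 at 0.5 RPKM in place of 90 at 1 RPKM. A proportional partner was found for 69 members at a distance of 0.05. Except for fewer members under the filter or per component, the cause of these changes was not tested.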
